A study of Mus musculus with 4 samples.

Results

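The 42 genes described here encode the fibroblast growth factor (FGF) ligands, their receptors, the receptor adaptors and the feedback genes of the pathway. They were taken by gene symbol, and not by a rule on their values, from a count table of 52636 mouse gene identifiers. All 42 were found. Of these, 22 are ligands, 5 are receptors, 2 are receptor adaptors, 10 are feedback inhibitors (the Sprouty and Spred families, *Dusp4*, *Dusp6* and *Il17rd*) and 3 are ETS transcription factors. RNA-seq was performed on tdTomato+ cells sorted from kidneys of E12.5 to E12.75 mouse embryos on a mixed C57BL/6J and 129/Sv background, 48 h after tamoxifen was first given. Control mice were *Eya1*CreER;tdTomato. *Eya1*cKO mice carried these alleles and, in addition, *Eya1* fl/fl. Both genotypes thus have the tamoxifen-inducible Cre recombinase in the *Eya1* locus and the tdTomato reporter that Cre switches on, and both received tamoxifen. The reporter is thus meant to mark cells in which *Eya1* was active at labeling, and their descendants. Each genotype has 2 libraries of 5000 cells, and the labels give 6 kidneys of each genotype from 4 pregnant females, while the study's methods give other numbers of kidneys and females. The study's text describes cell suspensions that were combined before sorting and libraries made from separate portions of them, so the *P* values measure the spread between portions, which may be technical.

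FGFs are secreted proteins that bind receptor tyrosine kinases together with heparan sulfate. The activated receptor phosphorylates the adaptor FRS2, which turns on the RAS-MAPK cascade, and the cascade induces ETS factors and its own inhibitors, so transcripts of *Etv4*, *Etv5*, *Spry1* and *Dusp6* are widely read as the output of the pathway. In the developing kidney, FGF9 and FGF20 maintain the nephron progenitors, FGF8 is needed by the early nephron, FGF7 and FGF10 act on the ureteric bud, and *Fgfr1* and *Fgfr2* are the main receptors of the mesenchyme. The question asked of these genes was how their transcripts differ between control and *Eya1*cKO cells.

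The control libraries hold 35411905 and 37999342 reads on genes and the *Eya1*cKO libraries 22239293 and 17457452, so the 2 genotypes differ in depth. They also differ in reads that were not aligned (6.32% and 6.69% against 12.9% and 12.7%), in reads on no gene (13.9% and 12.9% against 22.7% and 20.9%) and in the number of genes with a read (26486 and 27091 against 21455 and 20538), and the part of these differences in the FGF results was not tested. Transcripts of the deleted gene *Eya1* were counted in 6612 and 6420 reads in the controls and in 377 and 219 reads in *Eya1*cKO. Its level went from 180 ± 12.6 to 14.6 ± 2.97 CPM (read counts scaled to the library's total, mean ± SD, n = 2 libraries), a log2 fold change of −3.60 (SE 0.18, adjusted *P* = 1.9e-04 in edgeR). Markers of other cell types differ between the genotypes as well. The 8 nephron progenitor markers include the deleted gene *Eya1* itself. All 8 fell, and their summed level was 1926 and 1916 CPM in the controls against 408 and 364 CPM in *Eya1*cKO. All 6 podocyte markers rose (summed 505 and 515 against 2357 and 2352 CPM), as did all 6 adrenal cortex markers (18.7 and 11.4 against 677 and 653 CPM), all 7 chromaffin and sympathetic markers (5.90 and 9.72 against 522 and 550 CPM), all 8 endothelial markers (660 and 676 against 1185 and 1228 CPM) and 5 of 7 stromal markers (1753 and 1747 against 3541 and 3530 CPM). Of the 6 early nephron markers, 3 fell (892 and 892 against 513 and 633 CPM), as did 2 of 9 ureteric bud markers (275 and 291 against 174 and 168 CPM). Of the 7 blood and macrophage markers, 3 had enough reads to be tested and none of these passed (76.0 and 77.3 against 64.9 and 82.4 CPM), and the globin gene *Hba-a1* had no read in any library. The part of these other cell types in the FGF results was not tested. *Xist*, an RNA of female cells, was also lower in *Eya1*cKO (log2 fold change −2.83, adjusted *P* = 1.95e-04 in edgeR). The part of sex in the FGF results was not tested either. In bulk libraries of sorted cells, fewer cells that express a gene and less RNA of that gene per cell cannot be told apart.

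The FGF genes that fell in *Eya1*cKO were ETS factors, feedback inhibitors, the receptor *Fgfr1* and the ligands *Fgf1* and *Fgf8*. Of the 42 genes, 36 had enough reads to be tested. Transcripts of 10 fell (*Etv4*, *Etv5*, *Fgfr1*, *Spry1*, *Fgf1*, *Il17rd*, *Spred3*, *Spred2*, *Spry4* and *Fgf8*) and those of *Fgfr3* rose. Over all 19041 genes tested, 4.41% fell and 5.15% rose. Of the 36, the 6 ligands *Fgf5*, *Fgf7*, *Fgf12*, *Fgf17*, *Fgf20* and *Fgf22* passed the filter on low counts through the controls alone, so they had to be lower in *Eya1*cKO. The other 30 had a median log2 fold change of −0.36 (20 of 30 negative), beside 0.04 over the 17801 genes that did not pass through 1 genotype alone. Both *Eya1*cKO libraries lay below both controls for 24 of the 42 genes and above both for 4, and the genotypes overlapped for 14. Of the 36 tested FGF genes, 21 lay wholly below, 4 lay wholly above and 11 overlapped. Among all genes tested, 30.0% lay wholly below and 25.3% wholly above. Of the 30 FGF genes that did not pass through the controls alone, 15 lay wholly below (50%), beside 26.9% of the 17801 genes, and 4 lay wholly above. All these counts rest on 2 libraries a genotype. With control 1 left out, edgeR called 8 genes lower and 15 higher in the whole table, and with control 2 left out 7 and 16, and *Etv4* was the sole FGF gene called in either case. With *Eya1*cKO 1 or *Eya1*cKO 2 left out, each of the 11 calls was kept, but these fits, in which the control pair sets the spread, called 3271 and 3482 genes lower and 4143 and 4443 higher in the whole table.

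**Figure D1:**
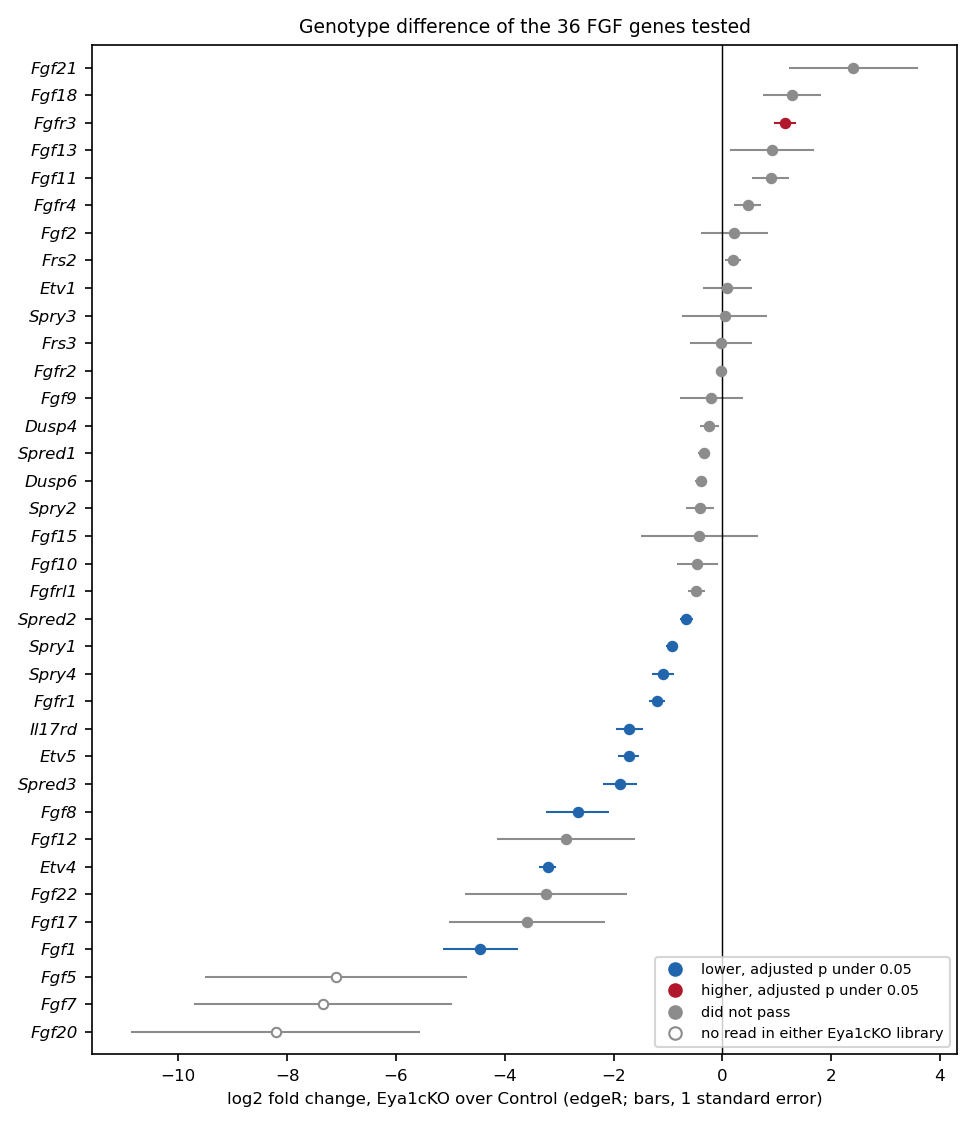
Log2 fold change of *Eya1*cKO over control (horizontal axis, edgeR, bars of 1 SE) for the 36 tested FGF genes, in order of size. Blue points are the 10 genes that fell, the red point is *Fgfr3*, grey points did not pass, and the open points at the left end are *Fgf5*, *Fgf7* and *Fgf20*, which had no *Eya1*cKO read and whose fitted values are not bounds.

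Of the ligands, 16 of 22 were tested and 2 fell, beside 4.41% of all genes tested. Without the 6 that passed the filter through the controls alone, 10 tested ligands were left, with a median log2 fold change of 0.01 and 5 of 10 negative. The summed level of the 18 secreted ligands in *Eya1*cKO was 53.3% of the control sum. Most of that difference lay in *Fgf8* (mean 25.2 CPM in the controls against 3.57 in *Eya1*cKO) and *Fgf1* (13.7 against 0.585). The sum thus does not describe the other secreted ligands. *Fgf8* (chr19:45736798-45742915, GRCm38, minus strand), the ligand that early nephrons depend on, was read at 25.3 and 25.1 CPM in the controls and at 6.90 and 0.23 CPM in *Eya1*cKO. Both *Eya1*cKO libraries lay below both controls but far apart from each other, with 156 reads in *Eya1*cKO 1 and 4 in *Eya1*cKO 2. The log2 fold change of *Fgf8* was −2.66 (SE 0.57) with an adjusted *P* of 0.034 in edgeR, and it was −6.77 without *Eya1*cKO 1 and −1.88 without *Eya1*cKO 2. *Fgf8* missed the threshold in the older quasi-likelihood method of edgeR (adjusted *P* = 0.23), without a filter on low counts (adjusted *P* = 0.069) and with the control counts thinned to the depth of *Eya1*cKO (adjusted *P* = 0.066). *Fgf1* (chr18:38838673-38929472, minus strand), a ligand that binds every FGF receptor, had 459 and 533 reads in the controls and 20 and 5 in *Eya1*cKO. These are 13.1 and 14.2 CPM against 0.89 and 0.29 CPM, a log2 fold change of −4.45 (SE 0.69, adjusted *P* = 0.0075 in edgeR), with no overlap. It was −5.58 without *Eya1*cKO 1 and −3.96 without *Eya1*cKO 2.

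*Fgf20*, a ligand of the nephron progenitor niche, was counted in 32 and 63 control reads and in no *Eya1*cKO read, at least 17.6-fold lower against a limit of 3 counts over the group. Its adjusted *P* was 0.11 in edgeR and 0.034 in DESeq2, so its call depends on the tool. Exons of *Micu3* (178 to 514 reads) cover 12.0% of its exonic length. *Fgf9*, the closest relative of *Fgf20*, was at 7.56 and 7.0 CPM in the controls and at 9.25 and 2.57 CPM in *Eya1*cKO, with the controls inside the range of the other two. The ureteric bud ligand *Fgf10* was at 14.5 and 17.8 CPM in the controls and at 8.85 and 15.5 CPM in *Eya1*cKO, with overlap and with a log2 fold change of −0.46 (SE 0.38, adjusted *P* = 0.46 in edgeR). Its paralog *Fgf7* had 22 and 30 control reads and none in *Eya1*cKO (at least 9.6-fold lower), and *Fgf5* had 26 and 18 against none (at least 8.1-fold lower), both with an adjusted *P* of 0.11 in edgeR. *Fgf17*, of the same subfamily as *Fgf8*, had 25 and 22 reads in the controls and 2 and 0 in *Eya1*cKO, a 13.0-fold difference with a counting interval from 3.41 to 111 (95%, counting error only). *Fgf22* had 15 and 39 reads against 1 and 2, a 9.98-fold difference with an interval from 3.24 to 49.9. Neither passed the test. The 2 *Eya1*cKO reads of *Fgf17* lie under the limit of 3 counts, so its fold is loose. *Fgf5*, *Fgf7*, *Fgf17*, *Fgf20* and *Fgf22* passed the low-count filter of edgeR through the controls alone. That filter left them no other direction, so these folds and intervals are descriptions. *Fgf22* shares 3.65% of its exonic length with *Rnf126*, which had 1860 to 4571 reads.

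Loss of all reads in *Eya1*cKO was also seen in other genes of such low counts. Of the 2897 genes in the table with 38 to 95 reads over both controls, 375 (12.9%) had no read in either *Eya1*cKO library. Among the FGF genes, 7 lay in that range (*Fgf3*, *Fgf5*, *Fgf7*, *Fgf12*, *Fgf17*, *Fgf20* and *Fgf22*), and 4 of them had no *Eya1*cKO read. The range was set from the 4 genes *Fgf3*, *Fgf5*, *Fgf7* and *Fgf20* themselves, so this comparison is a description.

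Some ligands were higher in *Eya1*cKO without passing the test. *Fgf18*, which is known mostly from bone and lung, was at 3.52 and 2.72 CPM in the controls and at 7.61 and 7.52 CPM in *Eya1*cKO (log2 fold change 1.28, SE 0.53, adjusted *P* = 0.16 in edgeR). *Fgf11* was at 9.77 and 8.39 CPM against 17.9 and 15.5 CPM (0.89, SE 0.34, adjusted *P* = 0.14 in edgeR). For both, the libraries of the genotypes did not overlap. They were the 2 of 16 tested ligands that lay wholly above the controls, beside 25.3% of all genes tested. *Fgf11* belongs with *Fgf12*, *Fgf13* and *Fgf14* to the intracellular FGFs, which are not secreted and bind sodium channels instead of FGF receptors. *Fgf13* was at 4.93 and 5.82 CPM in the controls and on both sides of them in *Eya1*cKO (16.9 and 1.60 CPM), and *Fgf14* had 12 and 10 control reads against 61 and 0. *Fgf12* had 19 and 36 reads against 2 and 2. The growth factor *Fgf2* was also spread more widely in *Eya1*cKO (3.59 and 13.1 CPM) than in the controls (6.13 and 7.16 CPM). Of the hormone-like FGFs, *Fgf15* had 63 and 80 control reads against 1 and 58 (its overlapping gene *Gm26793* had 2 and 5 against 117 and 14), *Fgf21* had 4 and 25 against 15 and 71, and *Fgf23* had 4 and 1 against none. The 6 ligands with too few reads to be tested were *Fgf3*, *Fgf4*, *Fgf6*, *Fgf14*, *Fgf16* and *Fgf23*. *Fgf3* had 35 and 3 control reads and none in *Eya1*cKO, *Fgf16* had 3 and 4 against none, *Fgf6* had 0 and 7 against 1 and 0, and *Fgf4* had no read in any library.

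**Figure D2:**
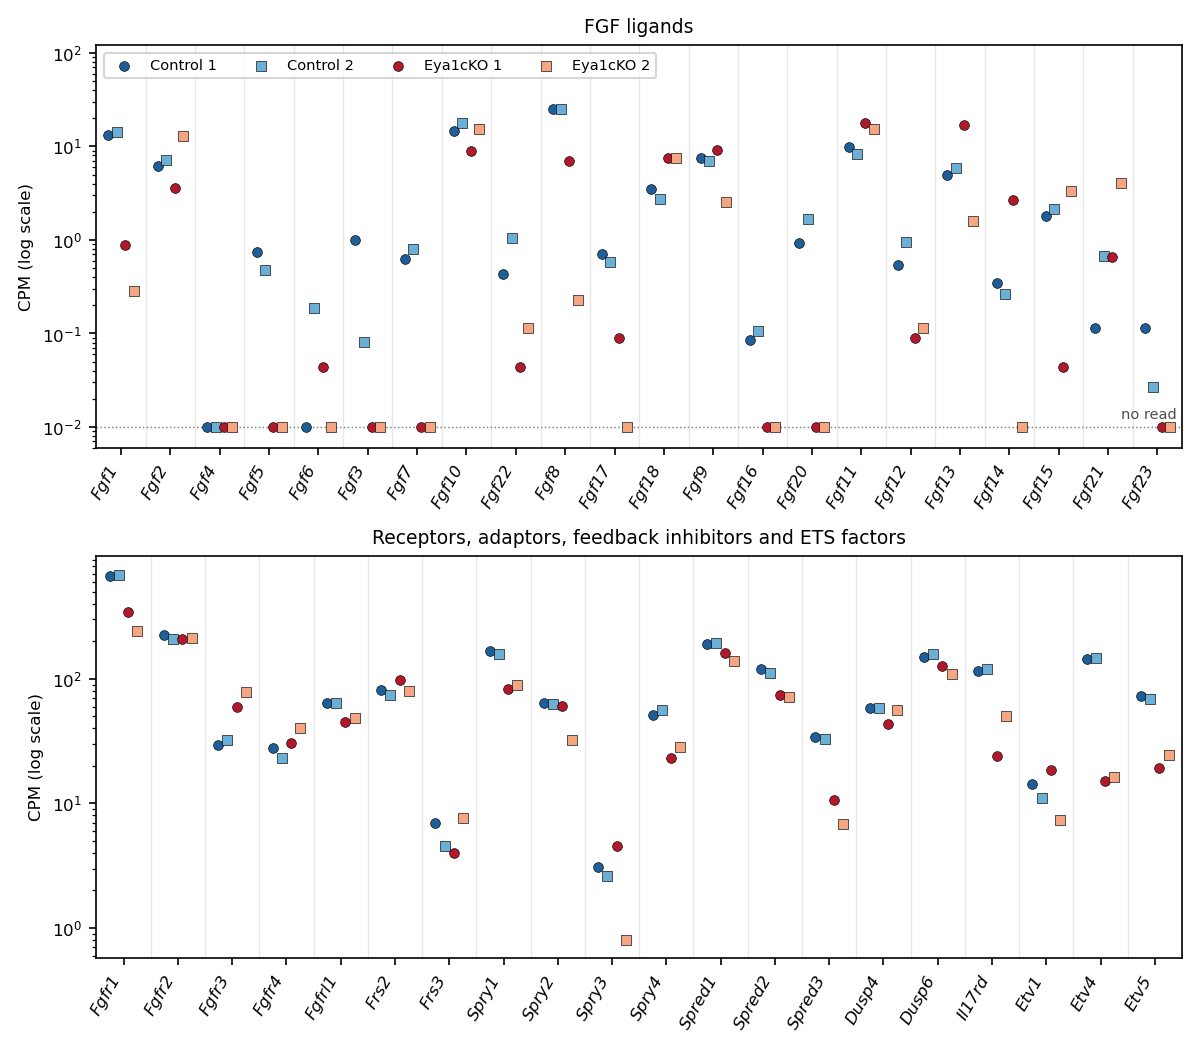
CPM of each of the 42 FGF genes in the 4 libraries, on a log axis with genes without a read drawn on the dotted line. *Fgf8* is at 25.3 and 25.1 CPM in the controls and at 6.90 and 0.23 CPM in *Eya1*cKO, and *Fgfr2* stays between 210 and 224 CPM in all 4 libraries.

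Set per kilobase of exon, so that genes can be compared, *Fgf8* was the most abundant ligand of the control cells (18.7 CPM per kb), well ahead of *Fgf10* (3.51), *Fgf11* (2.98), *Fgf18* (2.63) and *Fgf1* (2.51), whose order among themselves is loose because the control values of neighbours overlap. In *Eya1*cKO the highest mean levels per kb were those of *Fgf18* (6.38) and *Fgf11* (5.47), followed by *Fgf10* (2.64) and *Fgf8* (2.64). The order below *Fgf11* is loose. The *Eya1*cKO libraries were at 5.11 and 0.17 CPM per kb for *Fgf8* and at 1.92 and 3.36 for *Fgf10*. *Fgf21* (mean 2.48) and *Fgf13* (2.30) were close behind, each with libraries far apart.

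The receptors did not move together. *Fgfr1* (chr8:25513654-25575718, plus strand), the most abundant receptor, fell from 674.7 and 689.0 CPM in the controls to 347 and 243 CPM in *Eya1*cKO, with no overlap (log2 fold change −1.20, SE 0.14, adjusted *P* = 0.0048 in edgeR). *Fgfr3* (chr5:33721674-33737068, plus strand) rose from 29.2 and 32.5 CPM to 59.4 and 79.2 CPM, again with no overlap (1.15, SE 0.20, adjusted *P* = 0.017 in edgeR). *Fgfr2*, whose splice forms serve ureteric bud or mesenchyme, was at 224 and 210 CPM in the controls and at 211 and 214 CPM in *Eya1*cKO, with a log2 fold change of −0.03 (SE 0.09, adjusted *P* = 0.87 in edgeR) that turned to 0.01 with scaling by library totals. The counts are per gene, so the splice forms of a receptor were not separated. *Fgfr4* was at 28.1 and 23.1 CPM against 30.8 and 40.7 CPM (0.46, SE 0.24, adjusted *P* = 0.26 in edgeR). *Fgfrl1*, a receptor without a kinase domain that is needed for nephron formation in mice, was at 64.5 and 64.3 CPM against 44.8 and 48.2 CPM (−0.47, SE 0.15, adjusted *P* = 0.10 in edgeR). Its libraries did not overlap, though the test was missed.

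Per kilobase, the order in the controls was *Fgfr1* (69.1 CPM per kb), *Fgfrl1* (23.2), *Fgfr2* (21), *Fgfr4* (7.22) and *Fgfr3* (4.31). In *Eya1*cKO it was *Fgfr1* (29.9), *Fgfr2* (20.6), *Fgfrl1* (16.7), *Fgfr4* (10.1) and *Fgfr3* (9.68), where the last pair did not differ beyond the spread of the libraries. Of the length-corrected transcripts of the 4 receptors with a kinase domain, *Fgfr1* made up 67.0% and 69.0% in the controls and 48.4% and 36.2% in *Eya1*cKO. The share of *Fgfr3* was 4.00% and 4.48% against 11.4% and 16.3%, and that of *Fgfr2* was 21.25% and 20.1% against 28.2% and 30.6%. *Fgfr1* exceeded *Fgfr2* by 3.15- and 3.44-fold per kb in the controls and by 1.72- and 1.18-fold in *Eya1*cKO. These shares restate the changes of the single receptors and were not tested by themselves.

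**Figure D3:**
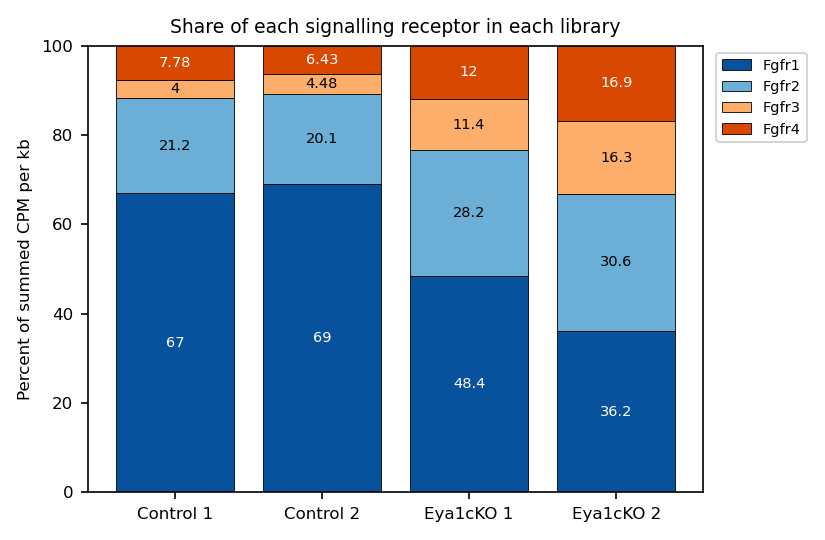
Share of each of the 4 FGF receptors with a kinase domain in their summed CPM per kb (vertical axis, percent) in each library. The *Fgfr1* share is 67.0% and 69.0% in the controls and 48.4% and 36.2% in *Eya1*cKO, while the *Fgfr3* share is 4.00% and 4.48% against 11.4% and 16.3%.

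The receptor adaptors gave no call. *Frs2*, which couples the receptors to RAS and MAPK, was at 81.5 and 74.4 CPM in the controls and at 97.4 and 79.6 CPM in *Eya1*cKO (log2 fold change 0.20, SE 0.15, adjusted *P* = 0.42 in edgeR). *Frs3* had a log2 fold change of −0.03 (SE 0.57, adjusted *P* = 0.98 in edgeR), which became 0.01 with scaling by library totals. The genotypes overlapped for both.

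Of the 10 feedback inhibitors, 5 fell and none rose, with 9 of 10 negative and a median log2 fold change of −0.54. Of all 19041 genes tested, 4.41% fell and 9311 were negative, with a median of 0.02. *Spry1* (chr3:37639947-37644598, plus strand), the Sprouty gene that restrains RET and FGF signaling in the kidney, went from 166.7 and 159.3 CPM in the controls to 82.7 and 88.6 CPM in *Eya1*cKO (−0.93, SE 0.11, adjusted *P* = 0.0048 in edgeR). *Spry4* (chr18:38586247-38601415, minus strand) went from 51.3 and 56.1 CPM to 23.1 and 28.2 CPM (−1.08, SE 0.20, adjusted *P* = 0.021 in edgeR). For these 2 inhibitors the *Eya1*cKO libraries lay close to each other and well below the controls. *Spry2* was at 64.6 and 62.7 CPM against 60.6 and 32.2 CPM, so that 1 *Eya1*cKO library was near the controls (−0.41, SE 0.25, adjusted *P* = 0.33 in edgeR). *Spry3* had at most 4.56 CPM in any library, and its genotypes overlapped.

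The Spred proteins block the cascade at the level of RAS and RAF. *Spred3* (chr7:29158829-29170411, minus strand) went from 33.9 and 32.8 CPM in the controls to 10.8 and 6.90 CPM in *Eya1*cKO (−1.88, SE 0.31, adjusted *P* = 0.014 in edgeR). *Spred2* went from 119.7 and 112.1 CPM to 74.8 and 71.3 CPM (−0.66, SE 0.12, adjusted *P* = 0.021 in edgeR). *Spred1*, the most abundant of the 3 per kilobase (28.3 CPM per kb in the controls), was at 190.9 and 192.4 CPM against 162 and 138 CPM (−0.34, SE 0.11, adjusted *P* = 0.093 in edgeR). All 3 lay wholly below the controls in *Eya1*cKO, as did 30.0% of all genes tested.

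*Il17rd* (chr14:27038941-27107286, plus strand) encodes Sef, a membrane protein that binds FGF receptors and holds back ERK signaling. It was read at 114.7 and 119.7 CPM in the controls and at 24.3 and 50.3 CPM in *Eya1*cKO (−1.71, SE 0.25, adjusted *P* = 0.010 in edgeR). The older quasi-likelihood method of edgeR did not call it (adjusted *P* = 0.054), and its log2 fold change was −1.23 without *Eya1*cKO 1 and −2.29 without *Eya1*cKO 2. The ERK phosphatases of this set, *Dusp6* and *Dusp4*, did not pass the test. *Dusp6* was at 151.1 and 158.4 CPM against 126.2 and 109.6 CPM (−0.39, SE 0.11, adjusted *P* = 0.082 in edgeR), and *Dusp4* was at 58.4 and 58.4 CPM against 43.7 and 56.5 CPM (−0.24, SE 0.18, adjusted *P* = 0.41 in edgeR). Both lay below the controls in each *Eya1*cKO library.

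The gene of smallest *P* in the set was an ETS factor. *Etv4* (chr11:101769742-101785371, minus strand), which acts downstream of both RET and FGF receptors, was read at 143.6 and 147.0 CPM in the controls and at 15.2 and 16.3 CPM in *Eya1*cKO. Its *Eya1*cKO level was 10.8% of the control level, a log2 fold change of −3.21 (SE 0.16, adjusted *P* = 0.0002 in edgeR), and it ranked 20 by *P* among all genes tested. *Etv4* passed the threshold in all 12 alternatives tried, with adjusted *P* values up to 0.044. *Etv5* (chr16:22381309-22439719, minus strand), its close relative, went from 73.2 and 69.5 CPM to 19.3 and 24.5 CPM (−1.72, SE 0.20, adjusted *P* = 0.004 in edgeR). Per kilobase, the ratio of *Etv4* to *Etv5* was 2.59 and 2.80 in the controls and 1.04 and 0.876 in *Eya1*cKO, so *Etv4* was the lower of the pair in *Eya1*cKO 2. *Etv1*, the remaining gene of this ETS group, was at 14.4 and 11.1 CPM in the controls and at 18.5 and 7.30 CPM in *Eya1*cKO (0.09, SE 0.45, adjusted *P* = 0.92 in edgeR). The summed level of the 3 ETS factors in *Eya1*cKO was 22.04% of the control sum. It was 56.7% for the Sprouty genes, 68.1% for the Spred genes and 20.1% for the nephron progenitor markers, which include *Eya1*.

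**Figure D4:**
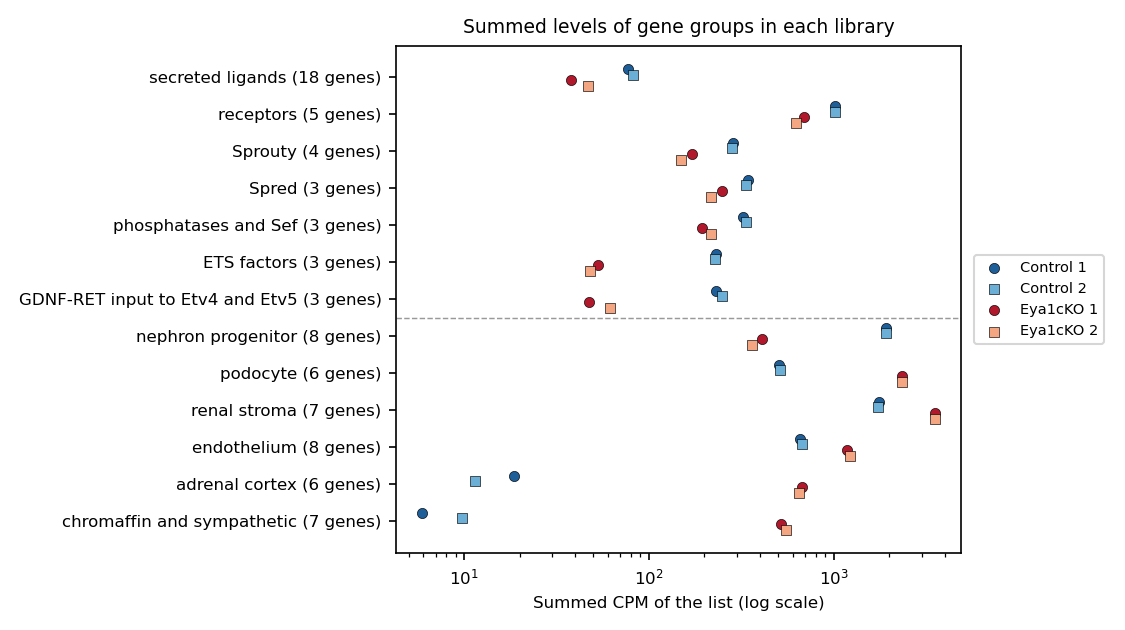
Summed CPM (horizontal log axis) of groups of FGF genes, of the GDNF-RET genes and, below the dashed line, of cell type marker lists, with a point for each of the 4 libraries. The ETS factors sit at 231 and 228 CPM in the controls and at 53.1 and 48.1 CPM in *Eya1*cKO, and the nephron progenitor, podocyte, adrenal cortex and chromaffin markers also lie apart by genotype.

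Promoter windows of genes that changed are shown because they span RefSeq starts of these genes. The RefSeq start of *Spred3* lies inside the GENCODE gene given above. They are RefSeq sequences of GRCm38.p6, each from 250 bases before to 50 bases after a gene start, read 5′ to 3′ on the strand of the gene. Of the 42 genes, 31 had 40 windows. Motifs chosen after the values were known were searched on both strands: the ETS core CCGGAA, the AP-1 site TGANTCA and the GC box GGGCGG. Matches are in capitals, and matches of different motifs may share letters at their edges. The windows are those of *Etv5* (chr16:22439521-22439820), *Spry1* (chr3:37639697-37639996), *Spred3* (chr7:29168598-29168897) and *Il17rd* (chr14:27038751-27039050), which fell, of *Fgfr3* (chr5:33721474-33721773), which rose, and of *Spry2* (chr14:105896770-105897069), which was not called and holds an ETS core. Not printed are the window of *Spred2*, which fell and has 1 GC box, a second *Etv5* window, which holds no match, and a second *Fgfr3* window, which has 2 GC boxes.
Etv5: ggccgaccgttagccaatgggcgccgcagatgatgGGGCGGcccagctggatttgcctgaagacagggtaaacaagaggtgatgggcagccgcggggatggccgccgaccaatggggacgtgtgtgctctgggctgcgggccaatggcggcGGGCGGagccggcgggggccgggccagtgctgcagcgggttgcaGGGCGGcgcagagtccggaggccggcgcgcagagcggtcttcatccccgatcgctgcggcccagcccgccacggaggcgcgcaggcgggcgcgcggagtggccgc
Spry1: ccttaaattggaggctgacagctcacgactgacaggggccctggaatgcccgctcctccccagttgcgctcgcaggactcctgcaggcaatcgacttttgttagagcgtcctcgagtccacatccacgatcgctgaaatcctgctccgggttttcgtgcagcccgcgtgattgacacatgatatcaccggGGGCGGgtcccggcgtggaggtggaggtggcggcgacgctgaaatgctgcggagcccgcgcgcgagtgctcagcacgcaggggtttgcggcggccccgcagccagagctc
Spred3: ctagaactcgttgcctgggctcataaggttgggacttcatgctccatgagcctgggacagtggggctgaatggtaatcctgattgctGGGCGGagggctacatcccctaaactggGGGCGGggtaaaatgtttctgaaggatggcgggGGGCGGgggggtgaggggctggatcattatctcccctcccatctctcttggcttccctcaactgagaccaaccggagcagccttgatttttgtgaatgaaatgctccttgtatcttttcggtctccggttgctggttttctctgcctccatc
Il17rd: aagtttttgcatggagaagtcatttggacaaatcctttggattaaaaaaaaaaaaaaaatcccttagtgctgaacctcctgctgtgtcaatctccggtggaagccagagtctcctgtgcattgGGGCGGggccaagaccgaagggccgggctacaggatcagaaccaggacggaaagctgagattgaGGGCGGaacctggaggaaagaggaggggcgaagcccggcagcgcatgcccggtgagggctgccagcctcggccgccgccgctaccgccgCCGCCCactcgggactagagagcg
Fgfr3: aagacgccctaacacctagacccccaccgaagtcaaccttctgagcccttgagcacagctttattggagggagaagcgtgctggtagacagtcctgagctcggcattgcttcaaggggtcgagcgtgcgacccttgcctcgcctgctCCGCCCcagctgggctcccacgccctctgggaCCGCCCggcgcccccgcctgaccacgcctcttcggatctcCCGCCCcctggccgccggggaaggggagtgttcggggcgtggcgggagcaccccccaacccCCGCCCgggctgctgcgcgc
Spry2: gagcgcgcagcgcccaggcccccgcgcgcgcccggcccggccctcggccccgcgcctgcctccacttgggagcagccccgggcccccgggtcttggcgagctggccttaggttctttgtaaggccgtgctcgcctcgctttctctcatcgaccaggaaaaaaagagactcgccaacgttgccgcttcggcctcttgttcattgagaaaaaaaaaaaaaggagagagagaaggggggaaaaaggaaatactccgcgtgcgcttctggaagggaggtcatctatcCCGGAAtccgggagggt

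The ETS core was in 6 of the 40 FGF windows (15.0%) and in 14.9% of all 32851 windows, and it was in 0 of the 6 windows of the 5 genes that fell and had a window. The AP-1 site was in 2 of 40 (5%, beside 7.81% of all windows), also with 0 of the 6. The GC box was in 26 of 40 (65.0%, beside 35.7%) and in 5 of the 6. A match is a run of letters and shows no binding, and a window without a match may have one elsewhere.

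Other genes of the pathway were taken from a list of 44, of which 43 were tested. Transcripts of 7 fell and those of 3 rose, with a median log2 fold change of −0.31. Among all 19041 genes tested, 4.41% fell and 5.15% rose, with a median of 0.02. With control 1 or control 2 left out, 0 of the 44 were called. Among the 20 adaptors and RAS-MAPK cascade genes that carry the signal from the receptor, the adaptor *Shc1* rose (0.49, adjusted *P* = 0.037 in edgeR). Of 14 other MAPK-induced genes, the phosphatases *Dusp7* (−1.01, adjusted *P* = 0.021 in edgeR) and *Dusp9* (−1.09, adjusted *P* = 0.0099 in edgeR) and the cyclin gene *Ccnd1* (−0.89, adjusted *P* = 0.0013 in edgeR) fell. The immediate early genes gave no call: *Egr1* had a mean of 2184 CPM in the controls and 2002 CPM in *Eya1*cKO, and *Fos* had 897 and 994 CPM. All 3 genes of the GDNF-RET input fell, with log2 fold changes of −2.76 for the ligand *Gdnf* (edgeR adjusted *P* = 0.001), −1.89 for the receptor *Ret* (0.023) and −1.61 for its co-receptor *Gfra1* (0.0034). RET signaling is known to induce *Etv4* and *Etv5* too, and inputs from FGF and RET cannot be told apart in these counts. Of the co-receptors and extracellular FGF-binding proteins, *Kl*, which encodes Klotho, the co-receptor for FGF23, rose by a log2 fold change of 3.70 (adjusted *P* = 0.011 in edgeR), and *Flrt2*, a membrane protein that binds FGF receptors, rose by 0.53 (adjusted *P* = 0.027 in edgeR).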

How the data were processed

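RNA-seq was measured in 2 control and 2 *Eya1*cKO libraries. The authors mapped reads to mm10 with HISAT2 and counted them on Ensembl genes with HTSeq (versions not given in the labels). The deposited values are raw counts per gene. The kit marks strand, but the strand setting of the counting is not given in the sources used here. Exons of 12 of the 42 FGF genes overlap another counted gene, 11 on the opposite strand. Partner reads ranged from 0 to 5627 (*Ctbp2*, over 3.04% of *Fgfr2*). *Spry1* shares 24.4% of its exonic length with the antisense gene *Gm42922* (2 to 38 reads), *Fgfr3* 13.9% with *G630022F23Rik* (2 to 16 reads) and *Fgf15* 25.7%, so reads of such pairs are uncertain. Gene counts per library were 17457452 to 37999342. Reads on no gene were 12.9% to 13.9% of all reads in the controls and 20.9% to 22.7% in *Eya1*cKO. A count of 3, the detection limit used, is 0.0801 to 0.171 CPM per library.

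Genes were kept by filterByExpr (minimum count 10), scaled by TMM and tested for genotype with glmQLFit and glmQLFTest in edgeR 4.0.16 (R 4.3.3), two-sided, with Benjamini-Hochberg adjustment at 0.05 over all 19041 genes tested. The SE was obtained by dividing the size of the log2 fold change by the square root of F. CPM use TMM-scaled totals, and CPM per kb use exonic lengths of GENCODE M21 (GRCm38, a later release than the one counted on). Intervals cover counting error only. DESeq2 1.42.0 was one of 12 alternatives. All 42 genes were reported. Others, apart from *Xist* and the overlapping genes, come from fixed lists of pathway genes and cell type markers. The 42 genes were set by symbol and not by a rule on their values. Earlier results of these data were nonetheless known when the genes, the lists and the tests were chosen. The result of a gene from these lists is not reported here. The edgeR steps were tested on simulated data.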

Additional observations from a re-analysis of the deposited data

How the results depend on the processing

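With 2 libraries per genotype, the count of calls depends most on which library is left out. FGF genes called lower ranged from 1 to 16 and higher from 0 to 6 over the fits that leave out 1 library, beside 10 and 1 with all libraries. Over all genes the ranges were 7 to 3482 lower and 15 to 4443 higher, and over the other pathway genes 0 to 20 lower and 0 to 6 higher. The lone library of a genotype is there assumed to vary like the other genotype's pair.

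Each replicate number occurs once in either genotype, but the correlation of the deviations of same-numbered libraries was 0.01, so the number does not pair them. With the replicate number as a block, 6 FGF genes were called lower and 0 higher (calls lost, each with its edgeR adjusted *P*, were *Fgf8* at 0.055, *Fgfr3* at 0.055, *Spry4* at 0.084, *Spred2* at 0.085 and *Spred3* at 0.059), 263 and 358 of all genes, and 3 and 1 of the other pathway genes. Without the low-count filter, 507 of all genes were called lower and 548 higher, and 1 other pathway gene higher. DESeq2 called 1294 and 1808, the older quasi-likelihood method 515 and 581, and 653 genes were called higher with thinned controls. Of the 11 FGF calls, 11 were kept under DESeq2, under its size factors in edgeR and under library totals, 10 without the filter and with thinning, 9 with the older method and 9 with at least 10 counts in every library, where *Fgf1* and *Fgf8* are no longer tested. With control counts thinned to the depth of *Eya1*cKO, the adjusted *P* of *Fgf20* was 0.085 and that of *Fgf7* was 0.087.

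None of the 11 calls changed sign. Genes without a call that did are given with the value reached. Library totals gave 0.010 for *Fgfr2* and 0.0105 for *Frs3*, DESeq2 gave 0.032 for *Frs3* and −0.0646 for *Spry3*, the older method 0.0172 and −0.0744, and the block −0.0249 for *Spry3*. Without 1 library, *Fgf2* ran from −0.91 to 0.96, *Fgf9* from −1.51 to 0.33, *Fgf13* from −1.76 to 1.63, *Fgf15* from −5.38 to 0.73, *Frs3* from −0.53 to 0.41, *Spry3* from −1.83 to 0.68 and *Etv1* from −0.81 to 0.52. The median of all genes tested was −0.21 without the filter and −0.18 in DESeq2, which tested other sets of genes. The cause of these changes was not tested.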

Other observations

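The *Eya1*cKO libraries differed by more than 2-fold for 11 of the 36 tested FGF genes (30.6%) and the controls for 2 (5.56%), beside 33.3% and 11% of all genes tested. The ligands held most of this, with 8 of 16 against 2 of 16. Among the 20 other FGF genes it was 3 against 0. The log2 CPM of all genes tested correlated at 0.97 between the controls and at 0.87 between the *Eya1*cKO libraries, beside 0.88 between libraries of different genotype.

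Ligands whose *Eya1*cKO libraries lay on both sides of the controls were *Fgf2* (3.59 and 13.1 CPM), *Fgf9* (9.25 and 2.57 CPM), *Fgf13* (16.9 and 1.60 CPM), *Fgf14* (2.70 and 0 CPM) and *Fgf15* (0.044 and 3.31 CPM). The library that was higher was not the same for these genes.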
